A study of Mus musculus with 200 samples.

Results

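The genes examined here were the 168 zinc finger genes on mouse chromosomes 2, 7, 13 and 17 whose symbol is Zfp followed by a number, with the exception of Zfp264. Each was taken by its symbol and chromosome, out of 22033 genes in the expression tables, and no expression value was part of that rule. Chromosome 7 carried 82 of them, chromosome 17 carried 39, chromosome 13 carried 31 and chromosome 2 carried 16. Another 161 genes named in the same way lie on the other autosomes and served as the comparison.

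Proteins of this family bind DNA through tandem C2H2 zinc fingers, in which 2 cysteines and 2 histidines hold a zinc ion. Many of them also carry a KRAB (Krüppel-associated box) domain, through which they recruit the corepressor TRIM28 (KAP1) and, with it, the histone methyltransferase SETDB1, heterochromatin proteins and DNA methylation to the sequences they bind, many of which are retroelements. KRAB zinc finger genes arose by repeated local duplication, lie in dense clusters, and differ in sequence between species and between mouse strains more than most transcription factors do.

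Expression was measured in single whole embryos at embryonic day 11.5 by 3SEQ, a sequencing method that reads the 3′ ends of polyadenylated transcripts. The inbred strains crossed were C57BL6/J (B6) and Castaneus (Cast, the CAST/EiJ strain), the second of them derived from wild mice of another subspecies. The 16 F1 embryos, each heterozygous at every autosomal gene, came from both directions of the cross, with 8 embryos from B6 mothers and Cast fathers (B6 × Cast) and 8 from Cast mothers and B6 fathers (Cast × B6). Each cross held 2 litters, and the crosses differed in age, with 48 to 63 somites in B6 × Cast and 41 to 48 in Cast × B6 embryos where they were counted, so that cross and age cannot be told apart. The N2 embryos came from F1 animals backcrossed to B6, so that at any autosomal gene an embryo was either B6/Cast or B6/B6. Of the 154 N2 embryos used, 89 had a B6 mother and an F1 father and 65 had an F1 mother and a B6 father. No Cast/Cast embryo was part of the design. Each embryo was a separate animal, and embryos of 1 litter shared a mother and a dissection.

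Depth was 15703888 to 38234229 reads on genes in the F1 embryos and 245220 to 5370322 in the N2 embryos, so that the F1 values of weakly expressed genes rested on more reads. Embryos 1 and 3 of the Cast × B6 cross, from the same litter, stood apart from the other F1 embryos, with median correlations of 0.904 and 0.931 over expressed genes against 0.951 to 0.973 in the rest. Markers of nerve cells, red blood cells, liver, muscle and mesenchyme were read in every F1 embryo. Over 10 markers of placenta and decidua the summed level was 8.65 to 16.1 RPM in F1 embryos (reads scaled to a total of 1000000 reads on genes per embryo), and 9 of the 10 had a median of 0 in N2 embryos. The exception, Gjb2, was at 8.62 to 16.0 RPM in F1 embryos. Single N2 embryos had sums of up to 56.5 RPM with B6 mothers and 33.2 RPM with F1 mothers. Among N2 embryos Gjb2 reached 55.7 RPM, and Prl8a2, read in 13 of them, reached 20.5 RPM. In whole embryos, fewer cells of a type and less RNA per cell cannot be told apart.

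Sequence patterns were then counted in the members' proteins. The symbol Zfp stands for zinc finger protein, so C2H2 patterns follow from the naming and are not an independent feature. At least 1 C2H2 pattern was found in 166 of the 167 members with a coding sequence in the annotation, with a median of 11 per protein and a maximum of 33. A KRAB A box pattern was found in 107 of the 167 members (64.1%), against 1.13% of 20071 coding genes. Its share differed by chromosome, from 7 of 16 members on chromosome 2 and 47 of 82 on chromosome 7 to 21 of 30 on chromosome 13 and 32 of 39 on chromosome 17. A match is a description of the protein's letters and not a test of function, and a box too diverged for the pattern is missed.

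The linker that joins neighbouring fingers has the consensus residues threonine, glycine, glutamate, lysine and proline, and 134 members carried it at least once. It is encoded by nearly the same DNA letters in many members, which bears on how uniquely short reads can be placed. The 18-base coding run with the most copies in the members spans such a linker. This run occurred 90 times in 24 members (14.4%) and in 51 of 20071 coding genes (0.254%). It is shown first for Zfp808, which held 14 copies. Below it stands the linker closest to it in each of 4 members to which the results below return. All are coding-strand sequences of the mm9 B6 genome, and the capitals mark the 5 linker codons.
Zfp808, chr13:62272865-62272882, plus strand: catACTGGAGAGAAACCC
Zfp811, chr17:32935014-32935031, minus strand: cacACTGGAGAGAAACCC
Zfp940, chr7:30630399-30630416, minus strand: cacACTGGAGAGAAACCT
Zfp27, chr7:30679602-30679619, minus strand: catACTGGCGAGAAACCT
Zfp334, chr2:165205660-165205677, minus strand: cacACGGGCGAGAAACCC
The Zfp811 linker differed from the shared run at 1 base, those of Zfp940 and Zfp27 at 2 bases and that of Zfp334 at 3 bases. These are the smallest differences among the linkers of each member, which were 6 in Zfp811, 1 in Zfp940, 12 in Zfp27 and 6 in Zfp334. Because 3SEQ reads start near the polyadenylation site, the last 500 bases of each transcript were searched in windows of 76 bases against the rest of the mm9 genome, with at most 3 differences. The authors cut the longer F1 reads to the length of the shorter ones but left the N2 reads longer. N2 reads were not searched at their own length. For 138 of 167 members no window matched elsewhere. In 28 members over 5% of the windows did, and in 17 over 50%. The authors discarded any read whose best and next best alignments were within 3 edits of each other, so reads from such windows are largely missing from the counts, and the values of those 28 are uncertain wherever they appear below.

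Most members were expressed at low levels. The median was 1.74 RPM in F1 embryos, with quartiles of 0.419 and 11.9, against 6.43 RPM for the zinc finger genes of the other autosomes and 2.87 RPM over all genes. The members together took 0.252% of all F1 reads. A mean of 5 RPM or more in N2 embryos was reached by 68 members (40.5%), against 59% of the other zinc finger genes and 45.4% of all genes. No F1 read fell on Zfp114, Zfp936, Zfp808 or Zfp97. In Zfp808 and Zfp97, 80.2% and 100% of the tail windows matched elsewhere, so any reads from them may have been discarded. No tail window of Zfp114 or Zfp936 matched elsewhere.

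Levels differed by chromosome and by protein type. The median F1 level was 5.24 RPM on chromosome 2, 4.33 on chromosome 7, 0.802 on chromosome 17 and 0.397 on chromosome 13. The 107 members with a KRAB A pattern had a median of 0.955 RPM, and the 60 without it a median of 13.1 RPM. These are differences in RPM per transcript end and not per length, since 3SEQ gives about 1 read per transcript.

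**Figure D1:**
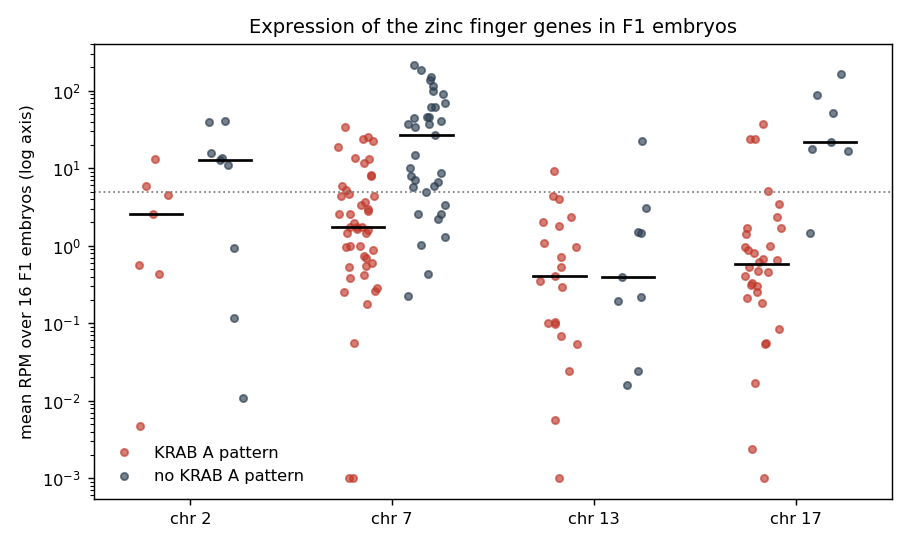
Mean RPM over the 16 F1 embryos (log axis) of each member, by chromosome and by whether its protein holds the KRAB A pattern. Bars are medians, the dotted line is 5 RPM, and members with no read are drawn at the bottom of the axis. On chromosomes 2, 7 and 17 the members without the pattern have the higher median, and on chromosome 13 both medians lie near 0.4 RPM.

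The 5 most abundant members in F1 embryos were Zfp428, Zfp553, Zfp414, Zfp444 and Zfp771, at means of 217, 187, 162, 152 and 138 RPM. Zfp428 (chr7:25292106-25300701) ranged from 188 to 324 RPM in B6 × Cast embryos, with a median of 215, and from 121 to 299 RPM in Cast × B6 embryos, with a median of 186. The ranges overlapped. None of the 5 carried the KRAB A pattern, and Zfp771 had no allele vote, so its alleles could not be told apart. Of members with a well-known role, Zfp57 on chromosome 17, which binds imprinting control regions and keeps their methylation in the early embryo, was at 17.2 ± 1.36 RPM in B6 × Cast and 15.8 ± 4.15 in Cast × B6 embryos (SD, n = 8 each). Zfp568 on chromosome 7, a KRAB repressor of a placental Igf2 transcript that mouse embryos need, was at 17.9 ± 2.73 and 27.5 ± 6.12 RPM. Zfp57 and Zfp568 are named for these roles and not by the rule that chose the other genes. Trim28, which encodes the shared corepressor, was far above all members, at 1013 ± 108 RPM in B6 × Cast and 1218 ± 351 RPM in Cast × B6 embryos (SD, n = 8 each).

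Allele-specific expression (ASE) was assessed next, to ask how often the B6 and Cast copies of a member were transcribed unequally in the same nuclei. Each read over a strain difference gives 1 vote, split where it covers several such positions, and the B6 allele fraction (BAF) is the share of B6 votes. A gene was tested if every F1 cross and every N2 cross (heterozygous embryos) held 20 votes or more for it. The paired test of the study's methods was applied to B6 and Cast votes, scaled by the reads on genes, over all 16 F1 embryos and the heterozygous N2 embryos. Calls needed a p under 0.01 after Bonferroni adjustment and a pooled BAF below 0.45 or above 0.55. Of the 168 members, 86 could be tested and 82 had too few votes in some cross.

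ASE was called for 13 of 86 members (15.1%), 7 with more B6 and 6 with more Cast RNA, against 18.9% of 9084 genes tested and 21 of 97 of the other zinc finger genes (21.6%). The members' share was thus near the background. Calls were more frequent at higher vote numbers. With the members split into 4 ranges of rising vote number, 0 of 22, 3 of 21, 1 of 21 and 9 of 22 members were called, and among the other genes in the same vote ranges 2.91%, 7.39%, 16.1% and 31.3% were. Zfp428 and Zfp523 passed the p threshold with pooled BAFs of 0.527 and 0.454, inside the window, and were not called.

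The 6 members with higher Cast expression were Zfp937, Zfp27, Zfp553, Zfp74, Zfp334 and Zfp511. Zfp27 (chr7:30678352-30691591), a KRAB protein with 21 finger patterns, had BAFs of 0.183 to 0.273 in B6 × Cast embryos, with a median of 0.223, and of 0.0808 to 0.572 in Cast × B6 embryos, with a median of 0.138. The value of 0.572 came from Cast × B6 embryo 3, in which Zfp27 had 16.01 B6 and 12 Cast votes and a level of 2.47 RPM, against 9.76 to 15.5 RPM in the other embryos of that cross. All other F1 embryos lay below 0.28. In heterozygous N2 embryos with at least 5 votes the mean BAF was 0.241 ± 0.104 with B6 mothers (SD, n = 20) and 0.213 ± 0.119 with F1 mothers (SD, n = 24), and the adjusted p over all 81 embryos was 1.54e-10 in the paired test, Bonferroni-adjusted over 9084 genes.

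Zfp553 (chr7:134376575-134381693), the second most abundant member, had BAFs of 0.158 to 0.263 in B6 × Cast embryos, with a median of 0.233, and of 0.174 to 0.267 in Cast × B6 embryos, with a median of 0.245. Every F1 embryo was therefore on the Cast side, in both directions of the cross, and the heterozygous N2 embryos pooled to 0.158 (adjusted p = 2.88e-20, 92 embryos). Zfp553 was at 187 RPM but had 5387 votes in all F1 embryos together, and 14.8% of its tail windows matched elsewhere in the genome.

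Zfp937 (chr2:150043809-150066461) had the lowest BAF of the members called, 0.0721 in F1 embryos over 208 votes and 0.155 in heterozygous N2 embryos over 64.5 votes (adjusted p = 9.07e-05). Among F1 embryos with at least 5 votes it ranged from 0 to 0.182 in 6 B6 × Cast embryos and from 0 to 0.231 in 8 Cast × B6 embryos. However, 79.1% of its tail windows matched elsewhere, so that reads from most of its tail would not have been counted. Zfp74, 37.5 kb from Zfp27 between gene starts, had a pooled BAF of 0.295, with F1 embryos between 0.16 and 0.480. Zfp334 and Zfp511 were closer to equality, at 0.386 and 0.427, and their F1 ranges were 0.335 to 0.464 and 0.340 to 0.452.

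The 7 members with higher B6 expression were Zfp329, Zfp408, Zfp959, Zfp507, Zfp811, Zfp213 and Zfp646. Zfp408 (chr2:91483826-91489948), known from inherited disease of the retinal vessels, averaged a BAF of 0.680 ± 0.0195 when the mother was B6 and 0.649 ± 0.0352 when she was Cast (SD, n = 8 each). Its lowest and highest F1 embryos were at 0.593 and 0.703, all above 0.5, and the heterozygous N2 embryos pooled to 0.747 (adjusted p = 1.84e-22, 96 embryos). In Zfp408, 9.88% of the tail windows matched elsewhere. Zfp811 (chr17:32934351-32937883), a KRAB protein with the most votes of the 13 members, had F1 BAFs of 0.519 to 0.668 and a heterozygous N2 BAF of 0.611 (adjusted p = 1.79e-16, 84 embryos). The bias of Zfp811 was small in size, but no F1 embryo was on the other side of 0.5.

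Zfp329 (chr7:13390326-13404207) had an adjusted p of 0.00285 in the paired ASE test over both generations. Its BAF was 0.711 over 360 votes in F1 and 0.937 over 452 votes in heterozygous N2 embryos, a difference that was not tested. Its F1 embryos ranged from 0.375 to 0.878. Heterozygous N2 embryos with at least 5 votes lay between 0.8 and 1, so that the generations overlapped only at the upper end of the F1 range. Zfp959 on chromosome 17 pooled to 0.681, Zfp507 on chromosome 7 to 0.617, Zfp213 on chromosome 17 to 0.585 and Zfp646 on chromosome 7 to 0.574. Zfp507 overlaps a gene on the opposite strand, as do Zfp646 and Zfp27.

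**Figure D2:**
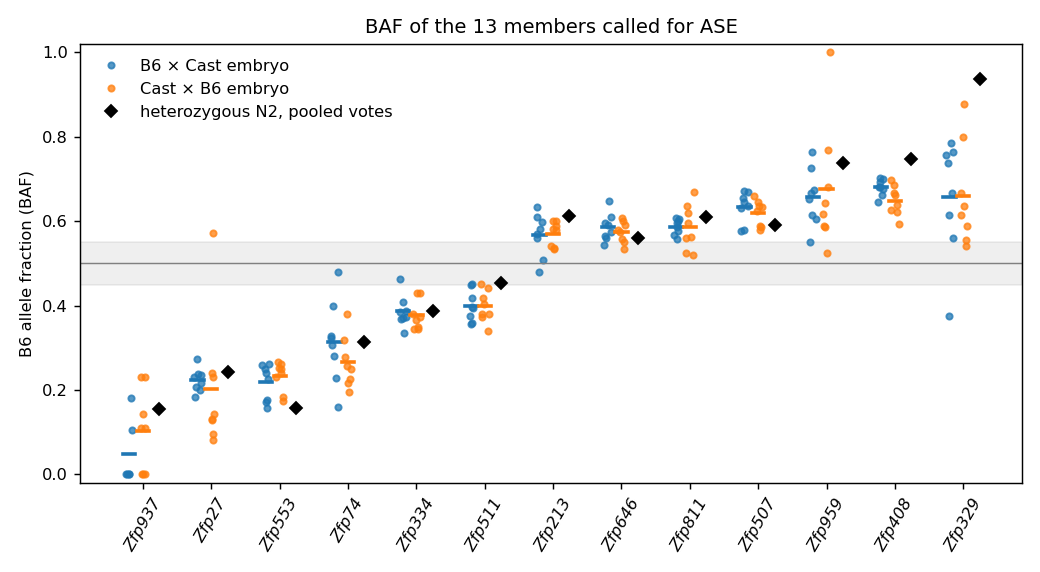
BAF of the 13 members called for ASE, ordered by F1 BAF. Points are F1 embryos with at least 5 votes by cross, bars are their means, diamonds are pooled votes of heterozygous N2 embryos, and the grey band is 0.45 to 0.55. Zfp27, Zfp553 and Zfp937 are below 0.3 in all F1 embryos but 1, and Zfp408 is above 0.59 in all.

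By chromosome, ASE was called for 3 of 11 members tested on chromosome 2, 7 of 48 on chromosome 7, 0 of 8 on chromosome 13 and 3 of 19 on chromosome 17. The 3 calls on chromosome 17 were all higher on the B6 allele. KRAB A pattern members were called in 6 of 54 cases and the others in 7 of 31. The median distance of the F1 BAF from 0.5 was 0.0964 with the pattern and 0.0343 without it. Members with the pattern were lower in level, and calls were more frequent at higher vote numbers. Vote number was not taken into account in either measure. None of the 12 tested genes among 20 corepressor partners of KRAB proteins was called, in which Setdb1 had an F1 BAF of 0.475 and Trim28 had no votes.

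The 2 directions of the cross were then compared. In exact permutation tests of BAF between the 8 B6 × Cast and 8 Cast × B6 embryos, two-sided, no named member had a difference in BAF at a Benjamini-Hochberg adjusted p under 0.05. Zfp408 had a difference of 0.0312 (exact p = 0.0465, adjusted p = 0.297) and Zfp27 one of 0.0196 (exact p = 0.841, adjusted p = 0.971). In level, 4 named members passed the same test between crosses, with overlapping ranges. The test takes embryos as independent, although each cross held only 2 litters. Zfp335, Zfp575 and Zfp628 were higher in B6 × Cast embryos, at 45.9 against 36.2, 18.5 against 11.3 and 54.2 against 36.9 RPM (exact permutation tests, adjusted p = 0.0103, 0.0282 and 0.0282), and Zfp217 was lower, at 8.87 against 12.8 RPM (exact permutation test, adjusted p = 0.0128). Within Cast × B6, Zfp575 was at 6.63 to 8.53 RPM in 1 litter and 13.7 to 16.2 RPM in the other. Zfp628 was at 27.8 to 32.3 and 39.5 to 44.4 RPM, whereas the litters overlapped in Zfp335 and Zfp217. These litters also differed in sequencing runs, and the part of litter and run was not tested. Parent-of-origin bias, defined as opposite higher alleles in the reciprocal crosses at a Bonferroni-adjusted binomial p under 0.01 in each, was called for 0 of 109 members, against 1.36% of 11903 genes, or 0.405% of the 11598 autosomal ones. At unadjusted p under 0.05 in both crosses the binomial test also gave 0 of the 109 members, but the share over all genes was not computed. A quasi-binomial test over embryos gave 0 members, with 7 at an unadjusted p under 0.05 between crosses, against 12.6% of 11895 genes.

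The heterozygous N2 embryos were independent of the F1 embryos, and so they show how far allele bias carried over. The same allele was the higher one in both generations for 69 of the 86 members tested (80.2%, 95% Wilson interval 70.6 to 87.3), against 76.8% of all genes tested. Across the 86 members Spearman's rho between the F1 and N2 BAF was 0.747, and across all genes 0.726. All 13 members called for ASE had the same higher allele in both, although both generations entered that call. Cast votes in N2 embryos called B6/B6 were 0.133% of the members' votes and 0.194% over all genes. They describe the error of the votes only in part, because the genotypes were themselves called from reads over strain differences. An embryo with many Cast votes would tend not to be called B6/B6. Over 2% were Cast votes in 2 of 75 members with at least 100 votes, Zfp715 at 6.61% and Zfp217 at 2.72%.

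The members lie in dense groups. With gaps of at most 500 kb between neighbouring members, 135 of 168 fell into 18 clusters of 2 or more, and 110 into 10 clusters of 5 or more. The largest was on chromosome 17 from Zfp160 to Zfp13, with 20 members over 2.59 Mb, of which 7 had enough votes. Next was the chromosome 13 cluster from Zfp712 to Zfp273, with 17 members over 0.788 Mb and a median level of 0.220 RPM, of which 4 had enough votes.

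The cluster on chromosome 7 from Zfp84 to Zfp146 (chr7:30553571-30954746) was the only one of the 10 clusters of 5 or more in which all members had enough votes, 14 of 14. The F1 BAF was below 0.5 in 13 of them, and in heterozygous N2 embryos it was below 0.5 in 9. Zfp27 and its neighbour Zfp74 had the lowest F1 values, 0.201 and 0.280, and were the members called. The next member, Zfp568, had 0.359 in F1 and 0.470 in N2 embryos and was not called. Most of the others lay between 0.43 and 0.52 in F1 embryos. Since all 154 N2 embryos had the same genotype at both ends of the cluster, no recombination was called between its members.

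**Figure D3:**
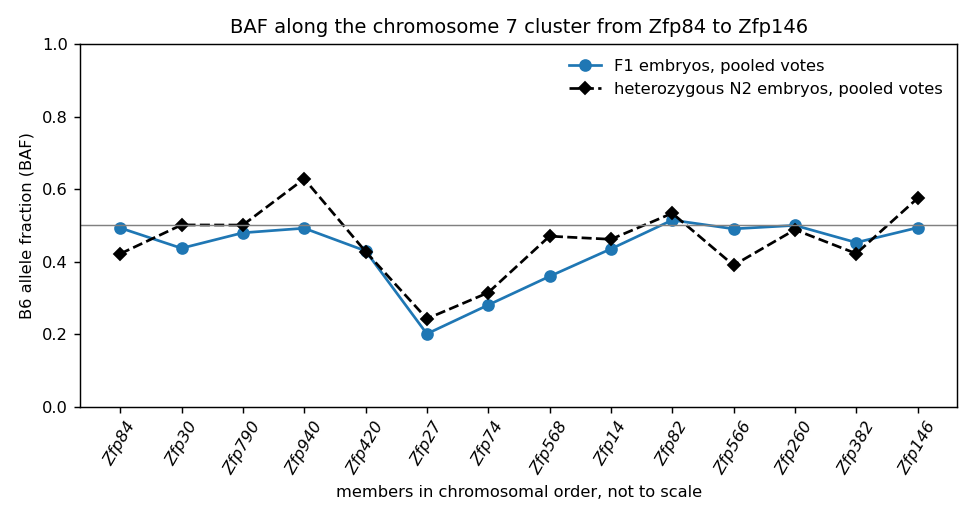
BAF from pooled votes of the 14 members of the chromosome 7 cluster from Zfp84 to Zfp146, in chromosomal order and not to scale, in F1 and in heterozygous N2 embryos. The grey line is 0.5. Both lines are lowest at Zfp27, with 0.201 and 0.243, and return toward 0.5 on either side.

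Of the other clusters, some had the B6 allele and some the Cast allele as the one more often higher. In the chromosome 7 cluster from Zfp180 to Zfp526, 7 of 9 were above 0.5 in F1 and 7 of 9 in N2 embryos, with none called. In the chromosome 17 cluster from Zfp871 to Zfp414, 6 of 8 were above 0.5 in F1 and in N2 embryos, with Zfp811 called. The margin was smaller from Zfp160 to Zfp13 on chromosome 17, with 4 of 7 in F1 and 5 of 7 in N2 embryos, and from Zfp551 to Zfp446 on chromosome 7, with 4 of 6 in both. On the Cast side, 3 of the 4 tested members of the chromosome 13 cluster from Zfp712 to Zfp273 were below 0.5 in F1 and in N2 embryos. The 3 members of the chromosome 2 cluster from Zfp335 to Zfp334 were all below 0.5 in both. Opposite biases also occurred within a cluster, as in Zfp553 at 0.231 and Zfp646 at 0.580 in F1 embryos, at the ends of a cluster of 0.653 Mb, which had 1 genotype in each of the 154 N2 embryos.

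Over all neighbouring members within 500 kb that were both tested, 30 of 48 pairs (62.5%, 95% Wilson interval 48.4 to 74.8) had the same higher allele in F1 embryos. The share was 50.8% over 7881 neighbouring pairs of all genes, 50.6% on the same 4 chromosomes and 51.7% over 29 pairs of the other zinc finger genes. The interval of the members includes these shares. In heterozygous N2 embryos 24 of the 48 pairs (50%) had the same higher allele. The interval covers counting error only, and pairs that share a member are not independent.

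The backcross allowed a second measure of local regulation that compares levels and not votes, the level of a member in B6/Cast against B6/B6 embryos at its own position. The genotypes that define these groups were themselves called from reads over strain differences. With equal alleles the level is the same, and a less active Cast allele lowers it in the heterozygotes. The residual log2(RPM + 1) after sequencing lane, somite number, Xist level and 15 principal components was compared by a rank-sum test, with Benjamini-Hochberg adjustment over all genes and a call at q under 0.01. Changes on this scale understate those of low genes. An own-genotype effect was called for 21 of 68 members tested (30.9%), against 29.1% of 9733 genes and 22 of 95 of the other zinc finger genes. Here too the members' share was near the background. The level was higher in B6/Cast embryos for 6 of them and in B6/B6 embryos for 15, whereas over all genes the calls were split 1450 to 1385. Without covariates 5 members were called (1183 of all genes), and by edgeR's likelihood ratio test with lane 13 (1815 of all genes).

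Zfp940 (chr7:30618639-30638688), a KRAB protein with 10 finger patterns, had the smallest p of the members. It ranged from 0 to 16.0 RPM in 65 B6/Cast embryos, with a median of 8.81, and from 0.789 to 31.3 RPM in 89 B6/B6 embryos, with a median of 13.4. The ranges overlapped, but the means were 8.67 and 13.6 RPM, and the residual difference was -0.56 ± 0.058 (SE, q = 1.16e-13 in the rank-sum test). From these means a BAF of 0.782 would be predicted if the B6 allele had the same activity in both genotypes. The measured BAF was 0.492 in F1 embryos over 569 votes and 0.628 in heterozygous N2 embryos over 113 votes, and Zfp940 was not called for ASE (adjusted p = 1).

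Zfp27, in the same cluster and of the same genotype in all 154 embryos, moved the other way. It ranged from 0.298 to 66.1 RPM in 65 B6/Cast embryos, with a median of 15.4, and from 0 to 41.2 RPM in 89 B6/B6 embryos, with a median of 4.96. The residual difference was 0.58 ± 0.088 (SE, q = 1.02e-08), and the predicted BAF of 0.290 lay near the measured 0.201 in F1 embryos. In Zfp27 and Zfp940, then, 2 genes of 1 cluster that are inherited together had opposite own-genotype effects.

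Zfp408 was at 2.11 to 20.8 RPM in 80 B6/Cast embryos, with a median of 10.7, and at 5.81 to 25.4 RPM in 74 B6/B6 embryos, with a median of 16.1. The difference was -0.39 ± 0.049 (SE, q = 5.86e-11), and the predicted BAF of 0.724 was close to the 0.662 of F1 and the 0.747 of N2 embryos. Zfp511 was higher in B6/Cast embryos (36.5 against 28.7 RPM, 0.34 ± 0.051 SE, q = 1.94e-08) and Zfp811 lower (49.1 against 54.6 RPM, -0.24 ± 0.037 SE, q = 2.68e-08), each in the direction of its BAF.

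Of the remaining members with the smallest p, Zfp937 was higher in B6/Cast embryos (8.83 against 4.22 RPM, 0.33 ± 0.066 SE, q = 2.91e-06). Zfp945, Zfp61 and Zfp213 were lower, by 0.35, 0.22 and 0.24 on the residual log2 scale. Zfp192 (chr13:21605091-21622989) was called as higher by 0.37 ± 0.066 (SE, q = 6.60e-07) although its mean levels were 6.55 and 6.57 RPM. Its medians were 4.71 RPM in B6/Cast and 2.93 RPM in B6/B6 embryos, and its F1 BAF was 0.483. Without covariates its difference was 0.21 (q = 0.367).

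**Figure D4:**
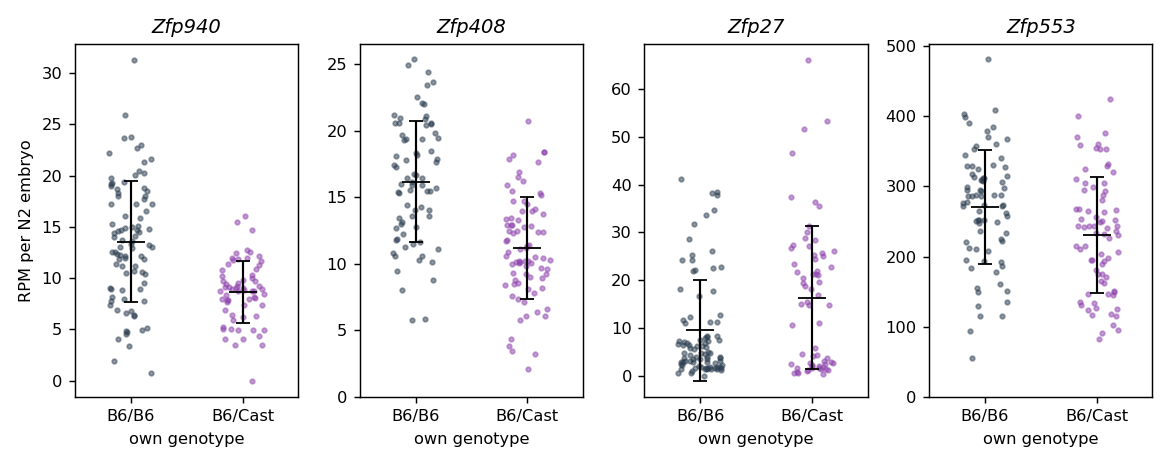
RPM in each N2 embryo by its own genotype at Zfp940, Zfp408, Zfp27 and Zfp553, with mean and SD. Zfp940, Zfp408 and Zfp553 have the lower mean in B6/Cast embryos and Zfp27 the higher, and the groups overlap in every panel.

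Set against the F1 alleles, which were read in other embryos, the own-genotype effect pointed the same way in 19 of the 21 members called (90.5%), against 2019 of 2348 genes (86%). The exceptions were Zfp940 and Zfp553. Zfp553 had a BAF of 0.231, with the Cast allele higher, but its level was lower in B6/Cast embryos, at 231 ± 82.5 against 270 ± 81.3 RPM (SD, n = 76 and 78), with a residual difference of -0.06 ± 0.020 (SE, q = 0.00381). The predicted BAF was 0.586. Over the 55 members tested in both ways, 10 were called in both, 9 of them in the same direction, 1 by ASE alone, 11 by own genotype alone and 33 by neither. The 1 called by ASE alone was Zfp334, with a difference of 0.10 ± 0.056 (SE, q = 0.216). Spearman's rho between F1 BAF and the own-genotype difference was -0.55 across these 55 members and -0.60 across 7282 genes.

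**Figure D5:**
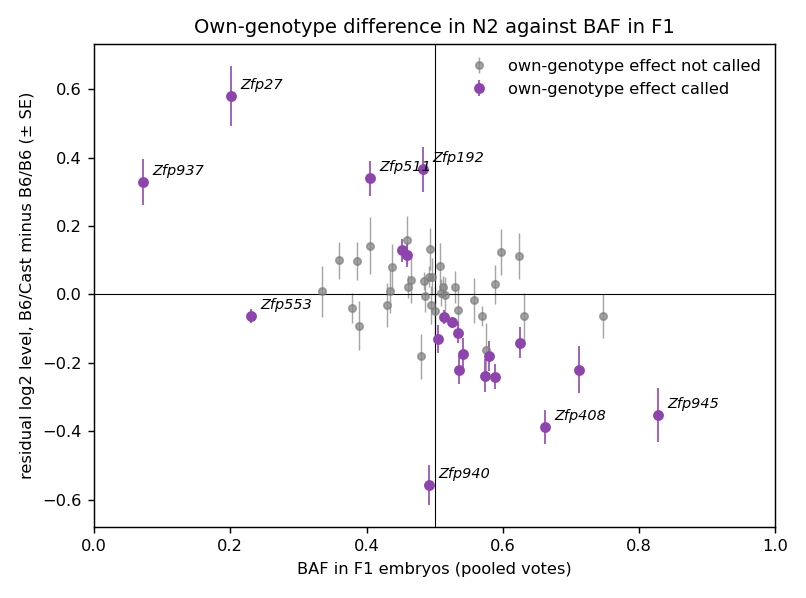
Own-genotype difference in residual log2 level (B6/Cast minus B6/B6, ± SE) in N2 embryos against F1 BAF for the 55 members tested in both ways. Members with unequal alleles of 1 direction fall in the upper left and lower right. Zfp553 lies in the lower left at 0.231 and -0.06, and Zfp940 near 0.492 and -0.56.

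The effect was not found to depend on the mother, as in an interaction test of own genotype and mother's genotype 0 of 68 members had q under 0.05 and the smallest q was 0.265, against 27 of 9733 genes. At an unadjusted p under 0.05 in the same linear model there were 10 members (7.99% of all genes). Among the corepressor partners the effect was called in 2 of 16, Hdac1 and Trim28, of which Trim28 was higher in B6/Cast embryos by 0.05 ± 0.020 (SE, q = 0.00429).

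The N2 libraries were sequenced on 2 HiSeq flowcells, and several members differed between them. The mean level was at least 3 times higher in the 79 embryos of flowcell 2 than in the 75 of flowcell 1 for 15 of 68 members (22.1%), against 17.9% of 10007 genes and 26.3% of the other zinc finger genes. The reverse, a level at least 3 times higher in flowcell 1, was seen in 0 members and 14 of all genes. The genes compared had a mean of 5 RPM or more over both flowcells together. Of the 15 members, only Zfp871 (9.07 RPM) and Zfp334 (6.26 RPM) reached 5 RPM in flowcell 1. The others passed this filter through flowcell 2, so the count depends in part on the filter. Of the 15, 10 carried the KRAB A pattern, as did 28 of the 68 members compared. They lay on chromosomes 7 (7 of 41 compared), 17 (4 of 12), 13 (3 of 5) and 2 (1 of 10). A difference by pattern or chromosome was not tested. The most unequal was Zfp260, at 1.39 ± 0.946 RPM in flowcell 1 and 38 ± 37.3 RPM in flowcell 2 (SD), and 2.57 RPM in F1 embryos. Zfp945 was at 1.39 ± 1.30 and 27.7 ± 27.6 RPM, and within flowcell 2 its lane medians ran from 0.699 to 54.5 RPM. The flowcells differed in their mothers, with 30 B6 and 45 F1 mothers' embryos in flowcell 1 and 59 and 20 in flowcell 2, and the part of mother, litter and lane in these differences was not tested.

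Some of the same members were also higher in N2 than in F1 embryos. N2 levels were at least 3 times F1 levels for 12 of the 86 ASE-tested members (14.0%), against 3.94% of all genes and 7 of 97 of the other zinc finger genes (7.22%), and the median N2 to F1 ratio was 1.27 against 0.925 and 0.985. The highest ratio was that of Zfp945, at 14.9 RPM in N2 and 1.70 RPM in F1 embryos. The 12 members had F1 levels of 0.412 to 2.57 RPM, and 10 of them carried the KRAB A pattern, as did 54 of the 86 compared. All genes compared here had enough votes in every F1 and N2 cross. A gene low in F1 embryos passes this filter more readily if its N2 level is high. The count of 12 therefore depends in part on the filter, and its share in the excess over all genes was not tested. Of the 15 members high in flowcell 2, 5 were among these 12, Zfp260, Zfp948, Zfp788, Zfp945 and Zfp329. For those 5 the level in flowcell 1 was below the F1 level, for example 2.03 RPM against 2.20 RPM in Zfp329. Generation, sequencing run and read length cannot be told apart in the F1 and N2 comparison.

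Own-genotype effects were also seen within each flowcell. In flowcell 1 alone 14 members were called (2184 of all genes) and in flowcell 2 alone 7 (1457 of all genes). Zfp940 differed by -0.59 in flowcell 1 (q = 6.70e-08) and by -0.53 in flowcell 2 (q = 9.93e-06), Zfp408 by -0.42 and -0.37, and Zfp27 by 0.71 and 0.45, all with q under 0.01. Zfp945 differed by -0.25 in flowcell 1 (q = 0.0532) and by -0.45 in flowcell 2 (q = 1.06e-05), and Zfp937 by 0.15 (q = 0.140) and 0.51 (q = 2.44e-06).

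The genotype of the mother was compared next, to ask whether the maternal environment shifted expression. With a two-sided Mann-Whitney U test and Bonferroni adjustment, 2 of 68 members were called, against 5.03% of 9733 genes. Zfp511 ranged from 1.09 to 75.2 RPM in the 89 embryos of B6 mothers, with a median of 17.0, and from 0 to 84.6 RPM in the 65 embryos of F1 mothers, with a median of 45.8. The means were 23.9 ± 19.5 and 44.5 ± 20.7 RPM (SD, adjusted p = 9.43e-05). Zfp346, which encodes a protein that binds double-stranded RNA, was at 12.4 ± 5.98 and 18.3 ± 6.30 RPM (SD, adjusted p = 0.000488). Both were higher with an F1 mother, and the ranges overlapped. In F1 embryos, where the mothers were B6 or Cast, Zfp346 was at 22.8 and 22.7 RPM.

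Embryos of 1 litter are not independent in this comparison. Over 29 litter means 0 members were called at an adjusted p under 0.01 by the Mann-Whitney U test, and 10 had an unadjusted p under 0.05, against 13.1% of all genes, with 0.00646 for Zfp511 and 0.00180 for Zfp346. Over lane means 0 were called and 1 had an unadjusted p under 0.05, against 2.74% of all genes, with p = 0.0612 for Zfp511 and 0.0332 for Zfp346. The next members by p were Zfp341, Zfp335 and Zfp668, with adjusted p of 0.0452, 0.162 and 0.240. Zfp341, whose human counterpart controls STAT3 expression, was at 6.16 and 8.77 RPM with B6 and F1 mothers, Zfp335, needed by neural progenitors, at 38.5 and 30.5 RPM, and Zfp668 at 33.8 and 43.0 RPM.

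Somite number, a measure of developmental age, was recorded for 147 of the N2 embryos and ran from 42 to 57. Expression of 11 of 68 members was correlated with it (Spearman, q under 0.05), 6 rising and 5 falling, against 22% of 10007 genes. Zfp575 (chr7:25368857-25372660) had the strongest correlation, with rho = 0.47 (q = 1.50e-07, n = 147). It was at 6.30 to 22.5 RPM with a median of 11.4 in 21 embryos of at most 45 somites and at 10.3 to 57.1 RPM with a median of 26 in 14 embryos of at least 53 somites. Of its tail windows 53.6% matched elsewhere, and it overlaps Ethe1 on the opposite strand. Zfp524, Zfp428 and Zfp628 also rose (rho = 0.32, 0.32 and 0.29), and Zfp952 fell (rho = -0.32), with medians of 6.82 RPM in the youngest and 0.214 RPM in the oldest embryos.

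Fewer members were called once the sequencing lane was taken into account. With lane regressed out of the ranks, 2 members were correlated with somite number, against 11.5% of genes, Zfp937 rising (rho = 0.26) and Zfp710 falling (rho = -0.25), and neither was among the 11. Zfp575 then had rho = 0.23 (q = 0.0624), Zfp952 -0.21 (q = 0.0915), Zfp428 0.15, Zfp524 0.07 and Zfp628 -0.04. In embryos of B6 mothers alone rho was 0.59 for Zfp575 and -0.54 for Zfp952, and in those of F1 mothers 0.42 and -0.08. Among the 11, the 3 members with the KRAB A pattern fell, and of those without it 6 rose and 2 fell, out of 28 and 40 tested. The 2 members called with lane regressed out went the other way. Zfp937, which rose, carried the pattern, and Zfp710, which fell, did not. Trim28 was not correlated with somite number at first (rho = 0.03, q = 0.829) and had rho = -0.25 with lane regressed out (q = 0.0358).

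Allele bias itself was not found to change with age. BAF was tested against somite number in heterozygous N2 embryos with at least 20 votes, and 0 of 19 members passed at q under 0.1 by Spearman's correlation, against 0.299% of 3342 genes. At an unadjusted p under 0.05, which 8.89% of all genes passed, there was 1 member, Zfp787 (rho = 0.33, p = 0.0314, q = 0.544, n = 42). Zfp444 and Zfp58 followed, with rho of -0.16 (n = 62, q = 0.781) and 0.24 (n = 24, q = 0.816). Few members had the votes for this comparison, and a weaker trend was not detectable at this depth.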

How the data were processed

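Per the labels, RNA of single embryos was sequenced by 3SEQ. Using Bowtie2, the authors aligned reads to mm9 and to a Cast version of it, and deposited raw counts per RefSeq gene, without normalization. The allele votes the authors deposited are estimated counts, in which a read over several SNPs is split. The genotypes deposited by the authors are codes of 1.0 (B6/B6), 0.5 (B6/Cast) or 0 (not called), made with a hidden Markov model. The rule for the members uses no measured value, but the rule and the lists were chosen with earlier results of these data known.

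RPM was the count divided by all reads on genes. Each F1 embryo, sequenced in 2 runs, has 1 column. Of 168 N2 columns, 8 had labels without a mother and 6 lacked genotypes, and these were not analysed here. Genes at a mean of 5 RPM or more in N2 embryos were tested for level. The methods' hidden factors (PEER) were replaced by 15 principal components. Replicate numbers only name embryos. Positions and coding sequences were those of GENCODE on mm9. Overlapping genes can share reads, and the authors discarded reads whose 2 best alignments were within 3 edits. Named members were the 10 lowest and 10 highest in BAF among ASE calls, the 10, 5 and 5 smallest p for own genotype, mother and somites, 3 for BAF against somites, the 5 highest in F1 RPM, and those over 2% Cast votes in B6/B6 embryos. Analyses used Python 3.11.15, scipy 1.17.1, and, as alternatives, edgeR 4.0.16 and DESeq2 1.42.0 in R 4.3.3 on the counts. Each test across genes was checked on simulated data. Alternatives for filters, covariates, tests, mothers, flowcells and litters are given in the closing section.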

Additional observations from a re-analysis of the deposited data

Results flagged for a closer look

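In groups of 8 F1 embryos, the BAF and RPM of the named members were searched for an embryo far from the other 7 by Dixon's ratio. Of 120 groups 8 held one, and chance gives about 1 in 20. Of these 8 values, 7 were in Cast × B6 embryo 1 or 3, the libraries that stood apart.

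Zfp27 in Cast × B6 embryo 3 had a BAF of 0.572, against 0.0808 to 0.241 in the other 7, and a level of 2.47 RPM, against 9.76 to 15.5. Zfp787 in that embryo had a BAF of 0.683, against 0.487 to 0.560, and a level of 37.6 RPM, against 62.9 to 76.6. In Cast × B6 embryo 1, Zfp408 was at 8.92 RPM, against 15.0 to 17.4, Zfp217 at 20.4 RPM, against 10.3 to 13.1, and Zfp959 at 1.10 RPM, against 2.17 to 2.79. Zfp335 was at 40.8 RPM in B6 × Cast embryo 5, against 45.6 to 47.9. Without the litter that holds embryos 1 and 3, 13 members were again called for ASE.

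Zfp551 on chromosome 7 differed in BAF between the F1 crosses, at 0.0897 in B6 × Cast and 0.393 in Cast × B6 embryos from pooled votes, a difference of -0.30 (quasi-binomial test over embryos, q = 0.0416). It had 330 votes in F1 embryos and was below 0.5 in both crosses.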

How the results depend on the processing

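Of 54 recomputed planned counts and shares, 34 stayed within 1.5 times the reported value. ASE was called for 27 members with Benjamini-Hochberg adjustment, and for 13 whichever F1 litter was left out. Own-genotype calls fell from 21 to 5 without covariates, 13 by edgeR's likelihood ratio test with lane, 11 and 12 with B6 or F1 mothers alone and 7 in flowcell 2. For the mother, 22 members were called with Benjamini-Hochberg adjustment, 18 by edgeR, 17 by DESeq2 and 21 by edgeR without a filter, but 0 over litter means, 0 over lane means, 0 in flowcell 1 and 0 in flowcell 2, where 37 and 46 members had an unadjusted p under 0.05 (52.1% and 61.7% of all genes), and 1 without the 13 shallowest embryos, an alternative chosen after seeing the data. For somite number, 2 were called with lane regressed out, 1 over litter means and 2 by edgeR with lane, but 38 with B6 mothers alone and 28 in flowcell 2. Among pairs of called neighbours, 100% of 1 pair had the same higher allele. The cause of these changes was not tested.

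Among the named members 5 values changed sign. The log2 difference by mother of Zfp668 was 0.0400 in flowcell 2. Zfp628 had a somite rho of -0.0371 with lane regressed out and a slope of -0.00868 by edgeR. The rho of Zfp444's BAF with somite number was 0.204 with lane regressed out and 0.0523 with F1 mothers alone. No paired analysis was possible because the replicate numbers, given in accession order, name single embryos and pair none between groups; the ASE test is paired within embryos.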
